A study of Mus musculus with 20 samples.

Results

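Igf2, H19, Cdkn1c, Dlk1, Meg3, Peg3, Mest, Grb10, Plagl1 and Ndn are imprinted genes that act on growth. They were chosen by name, and these 10 genes were among 36724 in the deposited table. An imprinted gene is transcribed mainly from the allele of 1 parent, because a control region near it carries DNA methylation set in the egg or the sperm. Many paternally expressed genes favour growth of the embryo and placenta and many maternally expressed ones restrain it, and several keep a role in adult neural stem cells, where p57, the product of Cdkn1c, is known for holding cells out of the cell cycle. The donors were of a single inbred background and the values are per gene, so the 2 parental alleles were not told apart.

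RNA was read from neurospheres, floating clusters grown from neural stem and progenitor cells of C57BL/6 mice aged 8 to 12 weeks, in medium with B27, EGF and FGF. There were 3 Egfl7 knockout and 3 wild-type libraries of the subventricular zone (SVZ) at culture day 3. From the hippocampus at day 5 there were 3 knockout and 3 wild-type libraries titled spheres1 (HC1) and 4 knockout and 4 wild-type libraries titled spheres2 (HC2). Every donor was male except the 3 HC1 wild types, which were female, so genotype and sex cannot be told apart within HC1. The labels give "knockout" with no allele and do not say whether the deletion was in all cells. Each library of a group has its own mouse number, and some numbers recur in other groups, also within a genotype. The titles do not say whether a shared number means the same animal, and all libraries were treated as independent.

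Values are RPKM, a read level corrected for how long the gene is and how many reads its library holds. The depth behind them, worked out from the smallest steps of the values, was 11.6 to 13.9 M reads in SVZ and HC1 libraries and 17.9 to 31.4 M reads in HC2 libraries, so depth and sphere round moved together. Egfl7 itself, on chromosome 2, was listed at 0 to 0.094 RPKM in knockouts and at 0.566 to 2.99 RPKM in wild types, with 2 exceptions, both in the SVZ. Replicate 2 of the libraries labelled knockout had 2.86 RPKM, and replicate 3 of those labelled wild type had 0. All 13 neural stem and progenitor markers passed the filter on low values in these spheres, as did all 8 astrocyte and all 8 oligodendrocyte lineage markers, against 3 of 11 pericyte, fibroblast and meningeal markers, 2 of 8 endothelial markers, 0 of 8 microglial markers and 0 of 6 choroid plexus markers. In bulk RNA, fewer cells of a type and less RNA per cell cannot be told apart.

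Of the 10 genes, 8 passed the filter, a level of 0.5 RPKM or more reached by 3 or more of the 20 libraries, as did 16403 genes in all. Igf2 and Dlk1 did not. Levels per kilobase spread widely among the members. Mest lay highest at 44.1 to 592 RPKM over the 20 libraries, followed by Peg3 at 49.2 to 78.4 RPKM and Ndn at 3.01 to 90.5 RPKM. Cdkn1c ran over 0.482 to 35.4 RPKM. Grb10 and Plagl1 stayed at or below 7.39 RPKM, and H19, Meg3, Dlk1 and Igf2 at or below 1.86 RPKM.

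**Figure D1:**
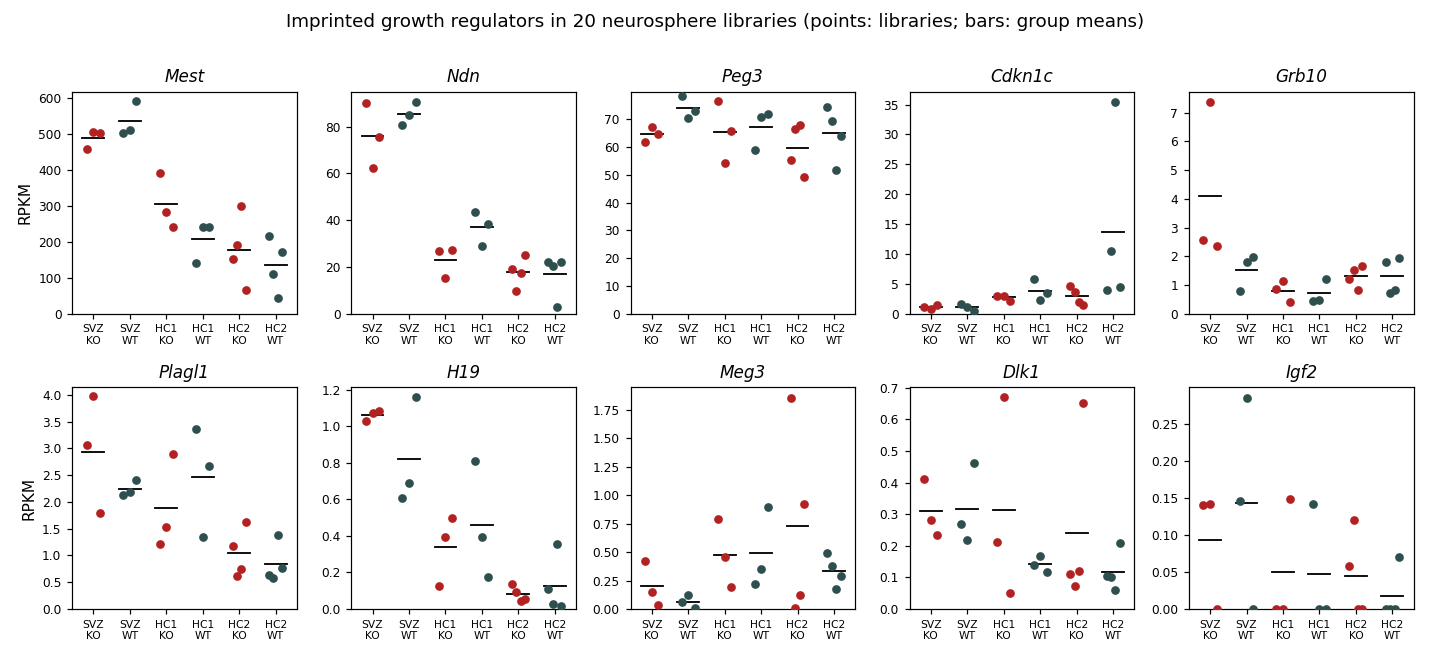
RPKM of each of the 10 genes (vertical axes, linear and from 0) in the 6 groups of libraries, knockout in red and wild type in dark grey; points are libraries and bars are group means. Mest and Ndn stand higher in every SVZ library than in any hippocampal one, Peg3 is level, and Cdkn1c has a single high HC2 wild-type library at 35.4 RPKM.

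The genes lie in known imprinted domains. On GRCm38, Igf2 (142650768 to 142662270), H19 (142575532 to 142578146) and Cdkn1c (143458339 to 143461072), all on the minus strand, share the end of chromosome 7, which also carries Peg3 (6705960 to 6730419, minus strand) and Ndn (62348277 to 62349928, plus strand). Dlk1 (109452823 to 109463336) and Meg3 (109540996 to 109571729) are neighbours on the plus strand of chromosome 12. Mest lies on chromosome 6 (30733506 to 30748466, plus strand), Grb10 on chromosome 11 (11930499 to 12037422, minus strand) and Plagl1 on chromosome 10 (13090788 to 13131694, plus strand).

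Promoter windows, the 250 bases before an annotated RefSeq start on GRCm38.p6, were found for 8 of the 10 genes. The 5 printed here belong to Mest, Ndn and Grb10, which were higher in SVZ spheres, and to Peg3, which was not. Capitals mark CG, the dinucleotide that carries imprinting methylation. They are written 5′ to 3′ on the strand of the gene.
Mest, upstream start, chr6:30733256-30733505, plus strand: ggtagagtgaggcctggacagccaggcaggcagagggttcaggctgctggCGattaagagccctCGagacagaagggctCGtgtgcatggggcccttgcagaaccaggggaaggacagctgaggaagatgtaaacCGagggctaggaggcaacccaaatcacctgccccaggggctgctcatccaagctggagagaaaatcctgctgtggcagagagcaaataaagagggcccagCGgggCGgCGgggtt
Mest, downstream start, chr6:30737800-30738049, plus strand: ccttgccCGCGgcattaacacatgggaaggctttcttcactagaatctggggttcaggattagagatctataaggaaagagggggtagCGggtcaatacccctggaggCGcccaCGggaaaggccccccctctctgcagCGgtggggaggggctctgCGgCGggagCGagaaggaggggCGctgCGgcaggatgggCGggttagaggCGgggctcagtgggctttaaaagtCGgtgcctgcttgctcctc
Ndn, chr7:62348027-62348276, plus strand: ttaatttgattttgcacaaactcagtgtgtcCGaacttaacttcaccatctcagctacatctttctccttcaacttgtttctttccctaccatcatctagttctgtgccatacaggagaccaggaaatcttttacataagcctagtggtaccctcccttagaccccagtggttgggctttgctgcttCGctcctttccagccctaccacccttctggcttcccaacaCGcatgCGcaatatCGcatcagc
Grb10, chr11:12037421-12037670, minus strand: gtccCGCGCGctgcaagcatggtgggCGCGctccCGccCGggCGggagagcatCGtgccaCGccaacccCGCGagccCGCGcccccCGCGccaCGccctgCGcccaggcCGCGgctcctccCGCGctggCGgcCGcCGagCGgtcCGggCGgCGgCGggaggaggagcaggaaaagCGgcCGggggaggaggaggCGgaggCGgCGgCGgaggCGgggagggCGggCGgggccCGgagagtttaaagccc
Peg3, chr7:6730420-6730669, minus strand: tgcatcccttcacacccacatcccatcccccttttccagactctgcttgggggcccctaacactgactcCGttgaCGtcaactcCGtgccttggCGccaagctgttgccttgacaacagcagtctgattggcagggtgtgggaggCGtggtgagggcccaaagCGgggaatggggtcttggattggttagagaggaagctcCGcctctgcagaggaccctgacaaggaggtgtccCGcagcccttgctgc
Of 32851 such windows of mouse genes, whose median holds 6 CG, 1.3% hold as many as the 40 CG of the Grb10 window printed. The window of a downstream Grb10 start, not printed, has 8 CG, a number that 43.0% of windows reach. The downstream Mest window has 14 CG, a number that 29.4% of windows reach, and the upstream one has 7. The Peg3 window has 8 CG and the Ndn window 5, which 55.6% of windows reach. Of the motifs searched on both strands, the Plagl1 core GGGGCCCC, found in 0.9% of all windows, occurs in the Peg3 window among those of the members. CCAAT, found in 33.8% of all windows, also occurs there and in windows of Meg3 and Igf2 that are not printed. TATAAA, found in 12.4% of all windows, is in none of the 5 printed but occurs in that Meg3 window. These matches describe letters only, and the study measured neither methylation nor binding.

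The regions were compared in the first sphere round, SVZ at day 3 against HC1 at day 5, so region and culture day cannot be told apart. Donor sex differed in part as well, since all SVZ donors were male and the HC1 wild types female. Of the 8 tested genes, 4 were called at an adjusted p under 0.05, Mest, Ndn, Grb10 and H19, and all 4 were higher in SVZ spheres. H19 would not have passed the filter without its SVZ libraries. Its call therefore counts a gene let in by the group where it was high. Over all genes 34.1% were called in this comparison, 14.5% higher and 19.6% lower. The median log2 difference of the 8 genes was 0.34, against -0.035 over all genes tested.

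Mest, a protein of the hydrolase fold family expressed from the paternal allele, was at 460, 505 and 592 RPKM in SVZ spheres (lowest, median and highest of 6) and at 141, 242 and 392 RPKM in HC1 spheres. The regions did not overlap, which was so, with SVZ higher, for 11.4% of all genes. Means were 513 ± 43.0 and 257 ± 81.3 RPKM (SD, n = 6 each), and the log2 difference of RPKM + 1 was 1.05 (SE 0.35, adjusted p = 0.0305). The call was lost in knockout libraries alone, all from males (0.71, adjusted p = 0.394), and without both SVZ libraries whose Egfl7 level went against their labels (1.01, adjusted p = 0.107). It was also lost without SVZ knockout replicate 2 or 3, SVZ wild type replicate 3, HC1 knockout replicate 2 or 3 or HC1 wild type replicate 1, each left out alone (adjusted p = 0.0518 to 0.0744).

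Ndn, encoding necdin, a paternally expressed MAGE protein known for slowing the proliferation of neural precursors, had the largest of the 8 differences on the scale of log2(RPKM + 1), while the means of Grb10 (ratio 3.72), Meg3 (0.276) and Cdkn1c (0.340) lay further apart as a fold. Its lowest, median and highest values were 62.1, 82.7 and 90.5 RPKM in SVZ spheres and 15.2, 28.1 and 43.5 RPKM in HC1 spheres. All 6 SVZ libraries lay above all 6 HC1 libraries, as for 11.4% of all genes. Means were 80.7 ± 10.7 and 30.0 ± 9.88 RPKM, a ratio of 2.69. The log2 difference was 1.46 (SE 0.36, adjusted p = 0.0062), 1.71 in knockouts alone (adjusted p = 0.0505) and 1.5 without the 2 libraries that went against their labels (adjusted p = 0.0276).

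Grb10, an adaptor that binds insulin and IGF receptors and restrains growth, was at 0.774, 2.16 and 7.39 RPKM in SVZ spheres (lowest, median and highest) and at 0.419, 0.659 and 1.21 RPKM in HC1 spheres. The highest value came from the library labelled SVZ knockout replicate 2, and the lowest SVZ library fell within the HC1 range. The log2 difference was 0.97 (SE 0.23, adjusted p = 0.00534), and 0.69 without the 2 libraries that went against their labels (adjusted p = 0.0348).

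H19, a maternally expressed long non-coding RNA beside Igf2, was at 0.607, 1.05 and 1.16 RPKM in SVZ spheres (lowest, median and highest) and at 0.127, 0.393 and 0.807 RPKM in HC1 spheres. These levels rest on 19 to 42 reads in SVZ libraries and 4 to 27 in HC1 libraries. A single HC1 wild type, at 27 reads, overlapped the SVZ range. The log2 difference was 0.48 (SE 0.11, adjusted p = 0.00514), or 0.41 without the 2 libraries that went against their labels (adjusted p = 0.0349). The pseudocount of 1 RPKM holds it below the fold of the means, 0.940 ± 0.231 and 0.400 ± 0.245 RPKM (SD, n = 6 each).

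Cdkn1c, the maternally expressed inhibitor of cyclin-dependent kinases, stood the other way round. It was at 0.482, 1.15 and 1.67 RPKM in SVZ spheres (lowest, median and highest) and at 2.19, 3.01 and 5.75 RPKM in HC1 spheres. The regions did not overlap, as for 12.2% of all genes in this direction. The log2 difference of -0.999 (SE 0.39) missed the threshold at an adjusted p of 0.0556, and it passed without HC2 wild type replicate 2 (0.0365), 5 (0.00814) or 6 (0.0473), libraries that enter only the shared estimate of spread. The difference was -0.828 in knockouts alone (adjusted p = 0.358) and -0.815 without the 2 libraries that went against their labels (adjusted p = 0.211). Over all alternatives the adjusted p-values were 0.00209 to 0.358.

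The other 3 tested genes did not pass. Peg3, a paternally expressed zinc finger protein, averaged 69.2 ± 6.02 RPKM in SVZ spheres and 66.4 ± 8.35 RPKM in HC1 spheres, a log2 difference of 0.06 (SE 0.11). Plagl1, a zinc finger transcription factor known to regulate other imprinted genes, averaged 2.59 ± 0.798 and 2.17 ± 0.916 RPKM, a difference of 0.20 (SE 0.19). Meg3, the maternally expressed long non-coding RNA of the Dlk1 domain, averaged 0.134 ± 0.151 RPKM in SVZ spheres and 0.487 ± 0.296 RPKM in HC1 spheres, a difference of -0.38 (SE 0.21, adjusted p = 0.171). For Meg3 this passed in a fit of the compared groups alone (adjusted p = 0.0433), and with a pseudocount of 0.1 RPKM it was -1.37 (adjusted p = 0.0877).

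**Figure D2:**
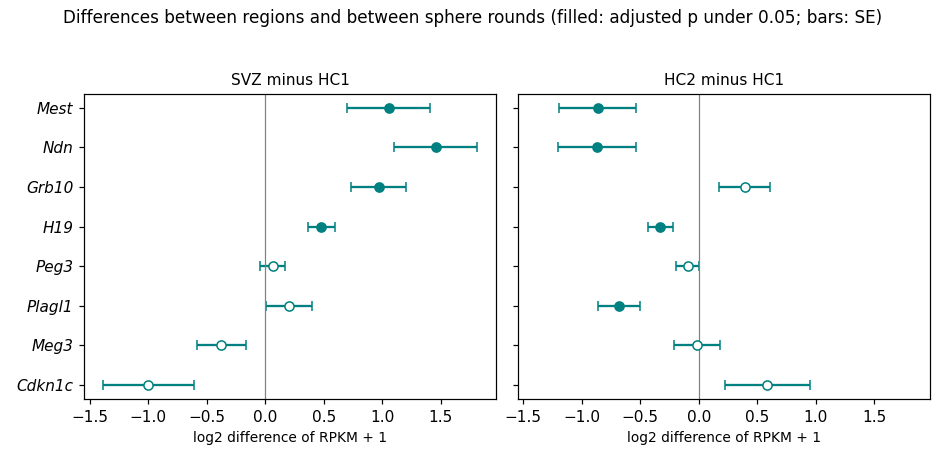
Differences in log2(RPKM + 1), with SE bars, for the 8 genes tested: SVZ minus HC1 on the left and HC2 minus HC1 on the right; filled points have an adjusted p under 0.05. Mest, Ndn, Grb10 and H19 are filled and above 0 on the left, while Mest, Ndn, H19 and Plagl1 are filled and below 0 on the right.

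HC2 spheres, from deeper libraries and male donors only, were then set against HC1 spheres of the same region and culture day. Here too 4 of the 8 genes were called, Plagl1, H19, Mest and Ndn, and all 4 were lower in HC2 spheres. More than that share of all genes was called, 54.3%, with 22.8% higher and 31.5% lower. The rounds overlapped in all 8 genes, whereas 8.87% of all genes lay wholly higher and 16.5% wholly lower in HC2 spheres. The median of the 8 log2 differences was -0.21, against -0.061 over all genes.

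Plagl1 was at 0.588, 0.757 and 1.63 RPKM in HC2 spheres (lowest, median and highest of 8) and at 1.21, 2.10 and 3.36 RPKM in HC1 spheres. Most HC2 libraries lay under every HC1 library, and the ranges overlapped. The log2 difference was -0.68 (SE 0.18, adjusted p = 0.00422), and -0.48 in knockouts alone (adjusted p = 0.148). H19 was at 0.015, 0.074 and 0.354 RPKM in HC2 spheres, or 1 to 27 reads, and at 0.127, 0.393 and 0.807 RPKM in HC1 spheres. No HC2 library reached the 0.5 RPKM of the filter, which H19 passed with the help of SVZ libraries. The log2 difference of H19 was -0.33 (SE 0.11, adjusted p = 0.0150), and the call was lost in knockouts alone (-0.30, adjusted p = 0.127).

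Mest was at 44.1, 163 and 300.3 RPKM in HC2 spheres and at 141, 242 and 392 RPKM in HC1 spheres, with a log2 difference of -0.87 (SE 0.33, adjusted p = 0.0359). Ndn was at 3.01, 19.8 and 25.1 RPKM in HC2 spheres and at 15.2, 28.1 and 43.5 RPKM in HC1 spheres, with a difference of -0.87 (SE 0.33, adjusted p = 0.0364). For both genes the ranges overlapped. Both calls stood near the threshold and were lost without HC1 knockout replicate 1 (adjusted p = 0.0863 for Mest and 0.0776 for Ndn) or HC1 wild type replicate 3 (0.0777 and 0.0655). The call of Mest needed each of 5 further libraries, replicate 2 of either HC1 genotype, HC2 knockout replicate 8 and HC2 wild type replicates 3 and 5 (0.054 to 0.0773 without them), and that of Ndn needed replicate 3 of the HC1 knockouts, replicate 1 of the HC1 wild types and replicate 4 of the HC2 knockouts (0.0736 to 0.0788 without them). Without HC2 wild type replicate 5 the Ndn difference was -0.56 and was called (adjusted p = 0.0174). In knockouts alone the difference was -0.94 for Mest (adjusted p = 0.124) and -0.38 for Ndn (adjusted p = 0.552).

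Cdkn1c averaged 8.27 ± 11.3 RPKM in HC2 spheres (SD, n = 8) and 3.28 ± 1.29 RPKM in HC1 spheres (n = 6), a difference of 0.59 (SE 0.36, adjusted p = 0.183). It was 0.28 without HC2 wild type replicate 5 (adjusted p = 0.355) and 0.011 in knockouts alone (adjusted p = 0.989), while library weights gave 0.74 and a call (adjusted p = 0.0446). Grb10 averaged 1.31 ± 0.487 and 0.756 ± 0.362 RPKM, a difference of 0.39 (SE 0.22, adjusted p = 0.137). Peg3, at 62.3 ± 9.17 and 66.4 ± 8.35 RPKM, and Meg3, at 0.531 ± 0.606 and 0.487 ± 0.296 RPKM, differed by -0.09 (SE 0.10) and -0.01 (SE 0.19) on the log2 scale. Tested over all 6 groups at once with limma's moderated F test, Mest, Ndn, H19, Cdkn1c, Plagl1 and Grb10 passed, 6 of 8, where 63.9% of all genes did.

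Cell cycle genes were read beside the members. Of a list of 25, 4 were called between SVZ and HC1 spheres, all higher in SVZ, a smaller share than the 34.1% of all genes. Between HC2 and HC1 spheres 18 were called, all lower in HC2, where 54.3% of all genes were called and 31.5% lower. The median log2 difference of the list was 1.11 for SVZ minus HC1 and -1.52 for HC2 minus HC1, against -0.035 and -0.061 over all genes. The mean log2 level of the list was 6.60 to 6.79 in SVZ libraries, 4.61 to 6.03 in HC1 libraries and 1.61 to 5.85 in HC2 libraries. Libraries did not rank in exactly the same order by Mest as by this mean. HC2 knockout replicate 1, at a mean of 5.54, had 153 RPKM, and HC2 knockout replicate 4, at 3.84, had 190.3 RPKM. The other HC2 knockouts went with the mean, replicate 7 at 5.64 with 300.3 RPKM and replicate 8 at 3.43 with 66.9 RPKM. HC2 wild type replicate 5 had the lowest mean, 1.61, and with it the lowest Mest (44.1 RPKM) and Ndn (3.01 RPKM) and the highest Cdkn1c (35.4 RPKM) of all 20 libraries. HC2 wild type replicate 3 had the next lowest mean, 2.56, and the next highest Cdkn1c, 10.6 RPKM.

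With the cell cycle mean as a covariate, the HC2 minus HC1 difference of Mest was -0.08 (adjusted p = 0.813) and that of Ndn -0.38 (adjusted p = 0.421). The calls of Plagl1 (-0.84, adjusted p = 0.00395) and H19 (-0.40, adjusted p = 0.0183) were kept. Between SVZ and HC1 the covariate left Ndn (1.1, adjusted p = 0.0386), Grb10 (0.89, adjusted p = 0.0209) and H19 (0.53, adjusted p = 0.00732) past the threshold and took Mest below it (0.48, adjusted p = 0.172). The Cdkn1c difference between SVZ and HC1, not called in the main fit, was -0.52 with the covariate (adjusted p = 0.297). The share of each difference that goes with the cell cycle cannot be told apart from the groups themselves, since the mean differs between them.

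**Figure D3:**
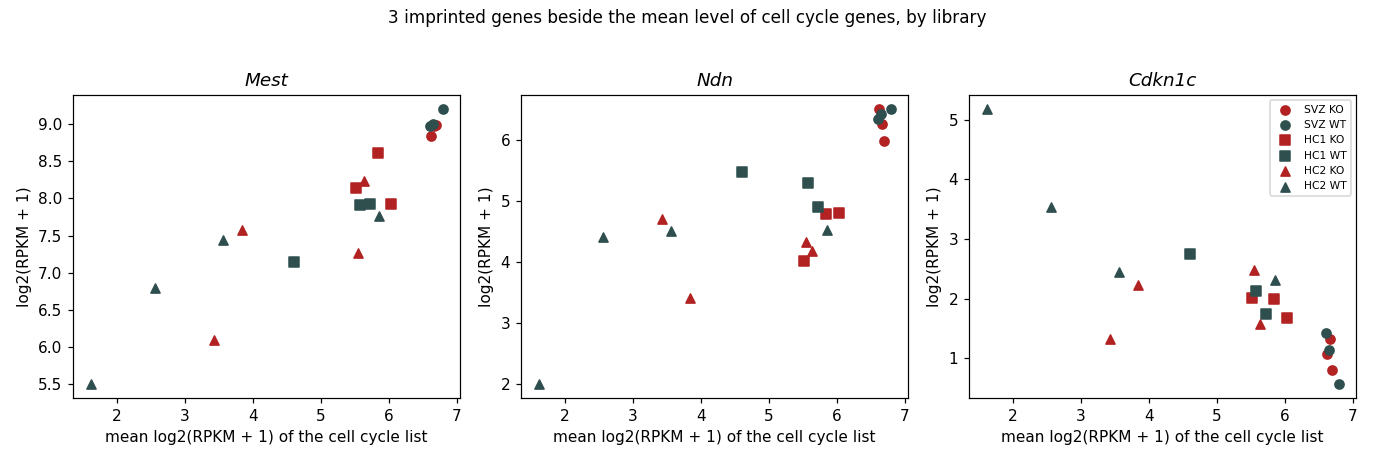
log2(RPKM + 1) of Mest, Ndn and Cdkn1c (vertical axes) beside the mean log2(RPKM + 1) of 25 cell cycle genes (horizontal axes), 1 point per library; red is knockout, dark grey is wild type, and circles, squares and triangles are SVZ, HC1 and HC2. SVZ libraries sit together at the right, at 6.60 to 6.79, and HC2 wild type replicate 5, at 1.61, lies alone at the left with the lowest Mest and Ndn and the highest Cdkn1c.

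Markers of other cell types were read beside the members as well. The summed level of 8 astrocyte markers was 709 to 1562 RPKM in SVZ libraries, 2661 to 19599 RPKM in HC2 libraries and 2481 to 6102 RPKM in HC1 libraries. Of these 8, 3 were called lower in SVZ than in HC1 spheres and 3 higher in HC2 than in HC1 spheres. Over all genes 34.1% were called between SVZ and HC1 spheres, 14.5% higher in the SVZ and 19.6% lower. Between HC2 and HC1 spheres 54.3% of all genes were called, 22.8% higher in HC2 and 31.5% lower. With such shares, nothing about a marker list is read from its count of calls alone. Of 8 oligodendrocyte lineage markers, 3 were lower in SVZ spheres (median log2 difference of the list -0.61) and 4 lower in HC2 spheres (-0.82). Of the 13 stem and progenitor markers, 1 was higher and 3 lower in SVZ spheres, and 6 were higher and 3 lower in HC2 spheres. The summed level of 11 pericyte, fibroblast and meningeal markers was 7.99 to 32.1 RPKM in SVZ libraries, 2.60 to 6.37 RPKM in HC2 libraries and 3.68 to 17.1 RPKM in HC1 libraries. In each group 1 of these 11 genes had a median of 1 RPKM or more, and of the 3 that passed the filter 1 was called, lower, in SVZ spheres, and 1 was higher and 1 lower in HC2 than in HC1 spheres. Of these markers Dcn, which is also an imprinted gene, was listed at 0 in every SVZ and HC2 library and in every HC1 knockout. The 8 endothelial markers summed to 4.06 to 8.09 RPKM in SVZ libraries, 0.561 to 1.95 RPKM in HC2 libraries and 1.36 to 2.69 RPKM in HC1 libraries. Of the 2 endothelial markers that passed the filter, 1 was called higher in SVZ than in HC1 spheres and 1 lower in HC2 than in HC1 spheres. Among the 8, 1 had a median of 1 RPKM or more in both SVZ groups and in HC1 knockouts. Cldn5 was at 0 in every SVZ and HC1 library and in every HC2 wild type. The part of these cells in the differences of the imprinted genes was not tested.

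Igf2, the paternally expressed insulin-like growth factor, was close to undetected. It had no read in 11 of 20 libraries and 1 or 2 reads in the rest, with at most 0.285 RPKM, in SVZ wild type replicate 2. A count of 0 allows up to 3 reads, which is 0.190 to 0.478 RPKM in those libraries by counting error alone, so no order among the groups was detectable. Dlk1, a paternally expressed membrane protein with epidermal growth factor-like repeats, was at 0.218 to 0.462 RPKM in SVZ spheres, 0.059 to 0.652 RPKM in HC2 spheres and 0.052 to 0.671 RPKM in HC1 spheres. The groups overlapped throughout. In a fit with no filter, the SVZ minus HC1 difference was 0.11 for Dlk1 (SE 0.11, adjusted p = 0.581) and 0.09 for Igf2 (SE 0.06, adjusted p = 0.349).

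Egfl7 knockout was compared with wild type in SVZ, HC1 and HC2 spheres and over both hippocampal rounds. With limma, 0 of the 8 genes passed in any of these comparisons, where 0.0122% of all genes did in the SVZ, 0.0122% in HC1, 0.0244% in HC2 and 0.0305% over HC1 and HC2. At an unadjusted p under 0.05 there were 1 of 8 genes in the SVZ (Grb10), 0 in HC1, 1 in HC2 (Cdkn1c) and 1 over both hippocampal rounds (Cdkn1c). The shares of all genes at that level were 2.31%, 3.94%, 3.93% and 5.91%, in that order of comparisons.

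Cdkn1c differed most in HC2 spheres. It had 4.61, 3.68, 1.99 and 1.51 RPKM in HC2 knockouts, against 3.97, 10.6, 35.4 and 4.43 RPKM in HC2 wild types. A single knockout reached into the range of the wild types, in which 1 library stood far above the other 3. The log2 difference was -1.46 (SE 0.47, adjusted p = 0.988), or -0.86 without HC2 wild type replicate 5 and -0.95 with the cell cycle mean as a covariate. In HC1, Cdkn1c had 3.00, 3.03 and 2.19 RPKM in HC1 knockouts, against 5.75, 2.34 and 3.39 RPKM in HC1 wild types (log2 difference -0.32, SE 0.55). In the SVZ it had 1.11, 0.741 and 1.5 RPKM in SVZ knockouts, against 1.67, 1.19 and 0.482 RPKM in SVZ wild types (0.03, SE 0.55). The genotypes overlapped in all 3 sets. Over HC1 and HC2 together the difference was -0.89 (SE 0.36, adjusted p = 0.750).

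Grb10 had 2.57, 7.39 and 2.35 RPKM in SVZ knockouts and 0.774, 1.82 and 1.96 RPKM in SVZ wild types. These groups did not overlap, as for 3.41% of all genes with knockouts higher. The log2 difference of 0.92 (SE 0.33, adjusted p = 1) was 0.495 without SVZ knockout replicate 2, the library whose Egfl7 level was that of a wild type, and 0.63 without both libraries that went against their labels. In HC1 and HC2 the Grb10 differences were 0.09 (SE 0.33) and 0.02 (SE 0.28). Peg3 had 61.8, 67.2 and 64.5 RPKM in SVZ knockouts and 78.4, 70.6 and 72.9 RPKM in SVZ wild types. All 3 knockouts lay lower, as for 4.35% of all genes, by a log2 difference of -0.19 (SE 0.15, adjusted p = 1), or -0.23 without those 2 libraries.

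In HC1, where the wild types were female, Mest and Ndn did not overlap between genotypes. Mest had 392, 283 and 243 RPKM in HC1 knockouts and 141, 242 and 241 RPKM in HC1 wild types (log2 difference 0.57, SE 0.50, adjusted p = 0.976), and 6.63% of all genes were separated with knockouts higher. Ndn had 26.8, 15.2 and 27.1 RPKM in HC1 knockouts and 43.5, 29.0 and 38.3 RPKM in HC1 wild types (-0.68, SE 0.50, adjusted p = 0.976), and 7.05% of all genes were separated with knockouts lower. The Mest difference was 0.31 without HC1 wild type replicate 1 and 0.38 without HC1 knockout replicate 1, and that of Ndn -0.42 without HC1 knockout replicate 2. In HC2, with male donors only, both genes overlapped. None of the 8 genes was separated there, where 0.719% of all genes were with knockouts higher and 0.408% with knockouts lower. Mest had 153, 190.3, 300.3 and 66.9 RPKM in HC2 knockouts and 216, 109.7, 44.1 and 173 RPKM in HC2 wild types (0.42, SE 0.43, or -0.041 without HC2 wild type replicate 5). Ndn had 19.3, 9.72, 17.2 and 25.1 RPKM in HC2 knockouts and 22.1, 20.4, 3.01 and 21.9 RPKM in HC2 wild types (0.30, SE 0.44), the difference having the other sign than in HC1.

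The rarer transcripts showed no separation by genotype. H19 averaged 1.06 ± 0.028 RPKM in SVZ knockouts and 0.818 ± 0.297 RPKM in SVZ wild types, and its log2 difference was 0.19 in the SVZ, -0.11 in HC1 and -0.05 in HC2, with SEs of 0.14 to 0.16. Meg3 was most variable in HC2 knockouts, at 1.86, 0.006, 0.123 and 0.924 RPKM, against 0.492, 0.382, 0.173 and 0.292 RPKM in HC2 wild types. Its differences were 0.16 in the SVZ, -0.01 in HC1 and 0.25 in HC2, with SEs of 0.26 to 0.29. Plagl1 differed by 0.24, -0.26 and 0.14 in the same order, with SEs of 0.24 to 0.27. These intervals are wide against levels of this size, and a difference was not detectable with these libraries.

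**Figure D4:**
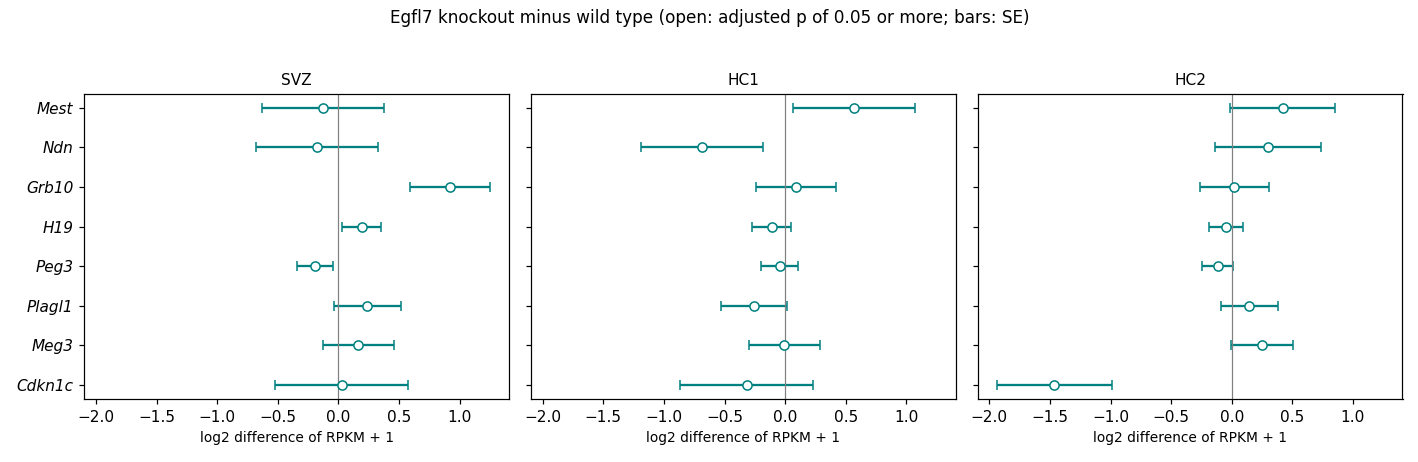
Knockout minus wild type differences in log2(RPKM + 1), with SE bars, for the 8 genes tested in SVZ, HC1 and HC2 spheres; open points have an adjusted p of 0.05 or more. No point is filled, and the 2 farthest from 0 are Cdkn1c in HC2 (-1.46) and Grb10 in the SVZ (0.92).

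The knockout effects were also set against each other. Of the 8 genes, 0 differed between the SVZ and HC2 effects, where 0.0305% of all genes did, or between the HC1 and HC2 effects, where 0.0244% did (limma, 0 also at an unadjusted p under 0.05). The 2 with the smallest unadjusted p were 0.90 for Grb10 (SE 0.43, unadjusted p = 0.0531) and 1.49 for Cdkn1c (SE 0.72, unadjusted p = 0.0558), both for SVZ minus HC2 and with an adjusted p of 1.000. For HC1 minus HC2 the widest were 1.15 for Cdkn1c (SE 0.72) and -0.98 for Ndn (SE 0.67).

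Other imprinted genes were read from a fixed list of 44, of which 28 passed the filter. Between SVZ and HC1 spheres 10 of these 28 were called, 4 higher and 6 lower, and between HC2 and HC1 spheres 16, with 6 higher and 10 lower. These shares lie near those over all genes, 34.1% and 54.3%, so nothing about the list is read from the counts. In the knockout comparisons 0 passed (limma). In knockout libraries alone 0 of the 28 passed between the regions and 15 between the rounds. Igf2r, the maternally expressed receptor that takes up and degrades Igf2, was at 7.93 to 14.8 RPKM in SVZ spheres and 5.68 to 7.68 RPKM in HC1 spheres (log2 difference 0.46, SE 0.12, adjusted p = 0.00743). In HC2 spheres Igf2r was at 11.4 to 14.1 RPKM, above every HC1 library, as 8.87% of all genes were (0.79, SE 0.11, adjusted p = 1.26e-05).

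Peg12 (1.14, adjusted p = 0.0198) and Peg10, a retrotransposon-derived gene needed for the placenta (0.93, adjusted p = 0.0216), were also higher in SVZ spheres. Impact (-0.89, adjusted p = 0.00139), Zrsr1 (-0.57, adjusted p = 0.00562) and Trappc9 (-0.36, adjusted p = 0.0071) were lower in SVZ than in HC1 spheres. Between rounds Peg13, a paternally expressed non-coding RNA inside the Trappc9 gene, was at 6.53 to 13.2 RPKM in HC2 spheres and 30.9 to 37.6 RPKM in HC1 spheres, with no overlap (-1.87, SE 0.12, adjusted p = 7.37e-10). Over all genes 16.5% lay wholly lower in HC2 spheres. Trappc9 was higher in HC2 spheres, at 40.7 to 55.3 RPKM, than in HC1 spheres, at 26.4 to 39.4 RPKM (0.54, SE 0.08, adjusted p = 4.26e-05).

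Snurf and Snrpn, which share a transcript in the Prader-Willi domain that also holds Ndn, were lower in HC2 spheres. Snurf was at 35.2 to 57.7 RPKM in HC2 spheres and 97.01 to 171 RPKM in HC1 spheres (-1.41, SE 0.15, adjusted p = 3.45e-07). Snrpn was at 46.0 to 67.7 RPKM in HC2 spheres and 98.5 to 139 RPKM in HC1 spheres (-0.92, SE 0.11, adjusted p = 1.52e-06). Reads of these overlapping genes could be split between them, so their values are not independent. Nespas, an antisense RNA of the Gnas domain, was higher in HC2 spheres, at 0.887 to 1.64 RPKM, than in HC1 spheres, at 0.172 to 0.590 RPKM (0.58, SE 0.09, adjusted p = 3.83e-05).

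In the IGF axis, 13 of 17 listed genes passed the filter. Between SVZ and HC1 spheres 4 were called, 3 higher and 1 lower, a share below the 34.1% of all genes. Igf2bp2, an RNA-binding protein known to bind Igf2 mRNA, had 25.0, 27.7, 19.7, 11.8, 14.2 and 14.9 RPKM in the 6 SVZ libraries and 0.782 to 4.96 RPKM in HC1 libraries (2.66, SE 0.26, adjusted p = 1.36e-05). Within the SVZ, all 3 knockouts lay above all 3 wild types in Igf2bp2, as 3.41% of all genes did, with the highest value in replicate 2, the library labelled knockout with the Egfl7 level of a wild type, and the log2 difference of 0.78 (SE 0.37) had an adjusted p of 1. Igf2bp3 was also higher in SVZ spheres (0.62, SE 0.10, adjusted p = 0.00029), and Igfbp5, a secreted IGF-binding protein, was lower (-1.62, SE 0.47, adjusted p = 0.0155). Like H19, Igf2bp3 would not have passed the filter without its SVZ libraries.

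Between HC2 and HC1 spheres 6 of the 13 genes of the IGF axis were called, 5 higher and 1 lower, also below the share over all genes, 54.3%. Igf2bp2 was the lower one, at 0 to 0.808 RPKM in HC2 spheres (-1.36, SE 0.24, adjusted p = 0.000155). Irs1, the docking protein of insulin and IGF receptors, was at 13.5 to 22.2 RPKM in HC2 spheres and 6.91 to 9.68 RPKM in HC1 spheres (0.93, SE 0.10, adjusted p = 6.36e-07). Htra1, a secreted protease that cleaves IGF-binding proteins, was also higher (1.03, SE 0.20, adjusted p = 0.000273). In the knockout comparisons 0 of the 13 passed (limma).

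The other CDK inhibitors, relatives of Cdkn1c in function, were 6 genes that all passed the filter. Between HC2 and HC1 spheres all 6 were called, 3 higher and 3 lower, where 54.3% of all genes were called, 22.8% higher and 31.5% lower. Cdkn2b was at 11.04 to 33.2 RPKM in HC2 spheres and 1.18 to 5.57 RPKM in HC1 spheres (2.29, SE 0.24, adjusted p = 3.86e-07), and Cdkn2a at 142 to 205 and 65.8 to 121 RPKM (1.02, SE 0.13, adjusted p = 4.65e-06). Cdkn2c (-0.95, adjusted p = 0.000341) and Cdkn1a (-0.53, adjusted p = 0.0102) were lower in HC2 spheres. With the cell cycle mean as a covariate 3 of the 6 passed. Between SVZ and HC1 spheres 1 was called, Cdkn1a, higher in the SVZ (0.92, SE 0.17, adjusted p = 0.00108), a share below the 34.1% of all genes.

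Genes that maintain imprints were read from a list of 7, of which 6 passed the filter. Zfp57, a zinc finger protein that protects methylation at imprinting control regions, was at 1.92 to 4.69 RPKM in HC2 spheres and 12.3 to 16.1 RPKM in HC1 spheres (-1.81, SE 0.15, adjusted p = 1.63e-08). Every HC2 library lay below every HC1 library, as for 16.5% of all genes. Zfp445, of the same role, was at 31.5 to 40.7 RPKM in HC2 spheres and 55.1 to 66.9 RPKM in HC1 spheres (-0.72, SE 0.07, adjusted p = 4.1e-07). In all 4 of the 6 were called in HC2 spheres, all lower, where 54.3% of all genes were called and 31.5% lower. Between SVZ and HC1 spheres 4 were called, where 34.1% of all genes were. Dnmt1, the maintenance DNA methyltransferase (1.01, adjusted p = 0.0167), and Trim28 (0.61, adjusted p = 0.00474) were higher. Zfp57 (-0.55, adjusted p = 0.0131) and Zfp445 (-0.47, adjusted p = 0.000649) were lower. Without the 2 SVZ libraries that went against their labels 2 of these 4 remained in number, and in knockout libraries alone 1. In the knockout comparisons 0 of the CDK inhibitors and 0 of the imprint maintenance genes passed (limma).

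Since none of these lists held a gene called by genotype, the members of smallest p are given as values only. Among other imprinted genes they were Zim1 (log2 difference -0.49, SE 0.20) and Sgce (-0.23, SE 0.16) in the SVZ, Sfmbt2 (-0.46, SE 0.20) and Trappc9 (-0.25, SE 0.13) in HC1, and Sgce (-0.40, SE 0.14) and Nespas (0.18, SE 0.12) in HC2. In the IGF axis they included Igfbp3, a secreted carrier of IGFs, at 239 ± 44.6 RPKM in HC1 knockouts and 101 ± 48.6 RPKM in HC1 wild types (SD, n = 3 each; 1.36, SE 0.87, adjusted p = 0.976), beside Igf2bp3 in the SVZ (0.39, SE 0.13) and in HC2 (0.26, SE 0.12). Cdkn1a, which encodes the CDK inhibitor p21, differed by 0.66 in HC2 (SE 0.21, adjusted p = 0.988), the opposite sign to Cdkn1c. Uhrf1, the partner of Dnmt1 at replicating DNA, differed by 1.24 in HC2 (SE 0.75, adjusted p = 0.988).

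**Figure D5:**
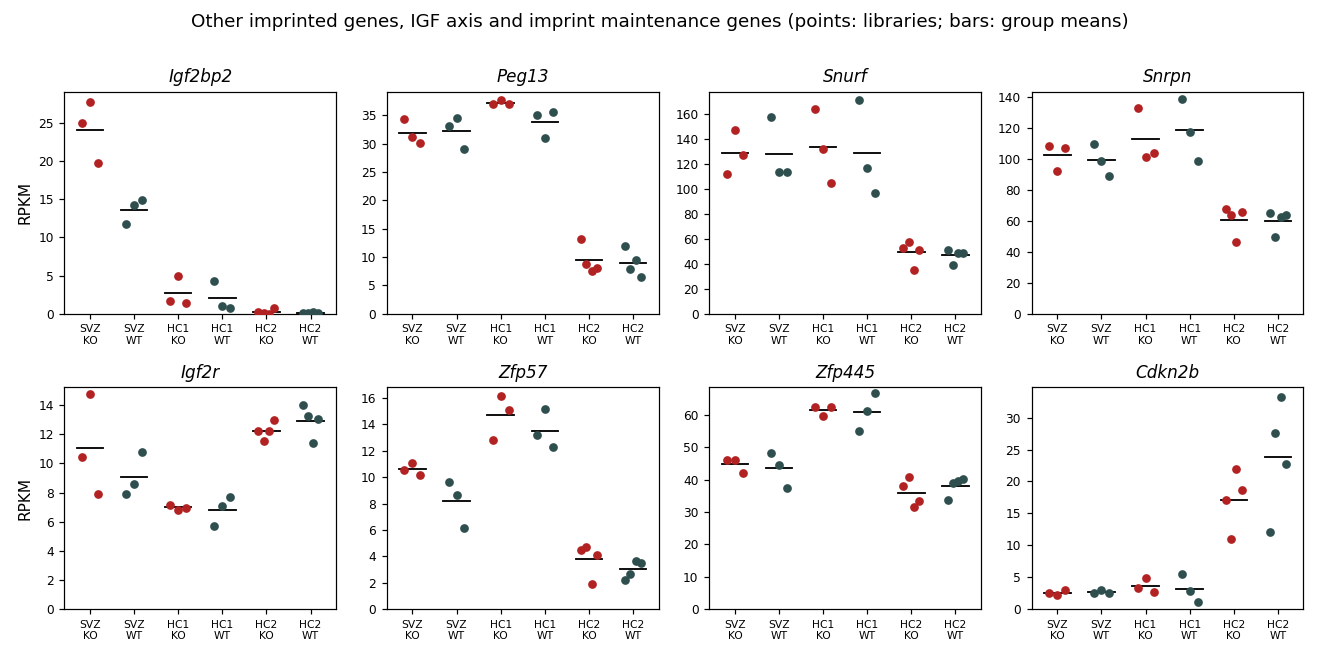
RPKM of 8 genes of the other lists (vertical axes, linear and from 0) in the 6 groups, knockout in red and wild type in dark grey; points are libraries and bars are group means. Igf2bp2 stands high in SVZ spheres, while Peg13, Snurf, Snrpn, Zfp57 and Zfp445 are lower and Igf2r and Cdkn2b higher in HC2 than in HC1 spheres.

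For each of the 8 tested genes, the genes of most alike profile were sought among those with a mean of at least 1 RPKM, by Pearson's r of log2(RPKM + 1) over the 20 libraries, which share group, depth and culture state. Mest was most like Rps6ka6 (r = 0.962) and Ptges3l (0.960), and Cdkn1c most like Runx1t1 (0.948) and Spire1 (0.916). H19 was most like Capg and Xylb (0.944 each), Plagl1 most like Rgs20 (0.901) and Mkl1 (0.879), and Ndn most like Trim68 (0.889) and Dock6 (0.884). The closest profiles of Grb10 (Angptl2, 0.809, and Emp3, 0.789), Meg3 (B4galnt1, 0.798, and Aff3, 0.793) and Peg3 (Rcn1, 0.735, and Ppib, 0.730) were less alike. With group means removed, r was 0.934 for Mest with Rps6ka6 and 0.875 for Cdkn1c with Runx1t1, and 0.434 for Ndn with Dock6. No other member of the 10 was among these pairs.

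Some members share sequence with another gene, and the sources used here do not state whether the counting used strand. Peg3os, on the opposite strand, lies within Peg3 over 865 bases and had 38.1 to 99.4 RPKM. Copg2, also opposite, shares 913 bases with the end of Mest and had 47.3 to 68.4 RPKM. Part of the Peg3 and Mest values could therefore be reads of these partners, or the reverse. The genes that overlap H19, Igf2, Meg3, Grb10 and Ndn were at or below 0.057 RPKM.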

How the data were processed

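Per the labels' protocols, total RNA of neurospheres went into stranded libraries after removal of ribosomal RNA, was enriched with mouse exon probes and was read as pairs. Per the submitters' processing notes, DESeq2 and FastQC 0.11.5 were among the tools and GRCm38 (mm10) was the build. For the aligner, the counter and the gene lengths, the sources used here name nothing. The authors deposited linear RPKM per gene, per the file headers, so they were not tested as counts.

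A gene was kept when 3 or more of the 20 libraries reached 0.5 RPKM (16403 of 36724, 44.7%). log2(RPKM + 1) was fitted with limma 3.58.1 in R 4.3.3 with 1 mean per group for 6 groups and 14 residual degrees of freedom (eBayes with trend and robust). Differences are on this scale and understate changes of low genes. All adjusted p-values are two-sided, adjusted by Benjamini-Hochberg over all kept genes, and the threshold is 0.05. The region contrast is the mean of both SVZ groups minus that of both HC1 groups, and the round contrast the mean of both HC2 groups minus that of both HC1 groups. Reads per gene were worked out from the value of 1 read and were resolved for Igf2 and H19 only, to within 0.15 of a whole read plus an allowance for rounding.

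The genes, lists and tests were chosen with earlier results of these data known. All 10 members were named. From the other imprinted and IGF lists, up to 3 called genes per comparison and direction with the smallest p were named, and up to 2 from the CDK inhibitors and imprint maintenance lists. Copg2, on 2 rows of the table, was left out of the lists. For likeness, the 2 genes of highest r were taken, leaving out predicted genes and pseudogenes. In the first sphere round, replicate numbers did not pair knockout with wild type. The fit was tested on simulated data. Alternatives are another pseudocount, other filters, quantile normalization, library weights, a cell cycle covariate, fits of the compared groups or of knockouts only, leaving out the SVZ libraries against their labels, and leaving out each library.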

Additional observations from a re-analysis of the deposited data

Results flagged for a closer look

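In groups of 4 libraries, 3 of 20 checks found a library whose gap to the nearest other passed the critical value of Dixon's gap test. These gaps were 0.908 to 1.0 of the range of the group. That critical value is set for a rate of 1 in 20 in normally distributed values. Whether linear RPKM meet this was not tested, so the 3 of 20 are not set against that rate. For Igf2, at a single read, the rate does not hold. Ndn was at 3.01 RPKM in HC2 wild type replicate 5, where the other 3 wild types had 20.4 to 22.1 RPKM, and this library also had the lowest cell cycle mean. Dlk1 was at 0.652 RPKM in HC2 knockout replicate 8, where the other 3 knockouts had 0.074 to 0.12 RPKM. Igf2 was at 0.07 RPKM, a single read, in HC2 wild type replicate 6 and was listed at 0 in the other 3.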

How the results depend on the processing

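Of 1376 recomputed differences of single members, 1284 kept their direction and their side of the threshold, 35 lost a call, 8 gained one and 49 changed sign. Many of these fits left out a library of a group outside the contrast, which leaves the difference itself unchanged. A call could be lost only by the 4 genes called for SVZ minus HC1 and the 4 for HC2 minus HC1. The 1284 are therefore no measure of how stable the calls were. The count of genes called for SVZ minus HC1, 4 of 8, was 2 in knockouts only and 6 in a fit of the compared groups, which added Cdkn1c and Meg3, and 3 to 5 when each library was left out. The count for HC2 minus HC1, also 4, was 2 with no filter, 2 with the cell cycle covariate, 2 in a fit of the compared groups, 2 without the SVZ libraries against their labels and 0 in knockouts only, and 2 to 4 when each library was left out. Among the other lists, SVZ minus HC1 counts moved from 10 to 0 (knockouts only) and 6 (without the SVZ libraries against their labels, or without SVZ wild type replicate 3) for other imprinted genes, from 4 to 7 (weights) and 2 (knockouts only) for the IGF axis, from 1 to 2 (weights, or compared groups) for CDK inhibitors and from 4 to 1 (knockouts only) and 2 (without the SVZ libraries) for imprint maintenance; for HC2 minus HC1, CDK inhibitors moved from 6 to 3 (covariate, or knockouts only). Over all genes, SVZ minus HC1 gave 5593 calls, 1158 in knockouts only and 2934 without the SVZ libraries, and knockout minus wild type in HC2 gave 4, or 26 without HC2 wild type replicate 2. The count over the 6 groups, 6, was 3 with the covariate. The fits without libraries have fewer samples and the one with no filter tests more genes; the cause was not otherwise tested. Replicate numbers did not pair knockout with wild type in SVZ and HC1 (correlations of deviations of -0.26 to 0.01). Pairing by mouse number between regions or rounds was not tested. With the replicate block 0 of the 8 genes passed in the SVZ and HC1, and over all genes 1 and 1 passed, against 2 and 2 without it.

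Uncalled differences changed sign as follows. With the covariate, knockout minus wild type in HC2 was -0.20 for Mest, -0.09 for Ndn, 0.006 for H19 and -0.069 for Grb10; over HC1 and HC2 it was 0.031 for Plagl1 and -0.008 for Grb10; Peg3 was -0.052 for SVZ minus HC1 and 0.066 for HC2 minus HC1; and Cdkn1c and Meg3 were -0.069 and 0.12 for HC2 minus HC1. In knockouts only, Peg3 was -0.009 for SVZ minus HC1 and Meg3 0.11 for HC2 minus HC1. With library weights, Cdkn1c in the SVZ was -0.009, Ndn in HC2 -0.019 and Plagl1 over HC1 and HC2 0.012. Quantile normalization gave 0.028 for Meg3 in HC1 and -0.047 for Grb10 in HC2. Without the SVZ libraries against their labels Cdkn1c in the SVZ was -0.076. Leaving out single libraries moved knockout differences over -0.21 to 0.22 (Cdkn1c, SVZ), -0.043 to 0.29 (Grb10, HC1), -0.11 to 0.15 (Grb10, HC2), -0.012 to 0.155 (Grb10, both rounds), -0.254 to 0.055 (H19, HC1), -0.097 to 0.042 (H19, HC2), -0.15 to 0.003 (H19, both), -0.15 to 0.18 (Meg3, HC1), -0.038 to 0.465 (Meg3, HC2), -0.022 to 0.229 (Meg3, both), -0.041 to 0.821 (Mest, HC2), -0.33 to 0.54 (Ndn, HC2), -0.16 to 0.08 (Peg3, HC1) and -0.186 to 0.038 (Plagl1, both), and Meg3 for HC2 minus HC1 over -0.157 to 0.094. Few reads limit H19 and Igf2, and 3 or 4 libraries per group limit the knockout comparisons.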
